A study of Mus musculus with 8 samples.

Results

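TAM receptors and their ligands were followed in single microglia of the mouse lumbar spinal cord after sciatic nerve injury and after loss of A20. The set was chosen by symbol and holds 6 of the 27998 genes in the count tables: the receptors Axl, Mertk and Tyro3, their ligands Gas6 and Pros1, and the bridging protein gene Mfge8. All animals were C57BL/6 and carried Cx3cr1-yfp-creER/+, so control mice had 1 intact Cx3cr1 copy too. The 4 control libraries came from Cx3cr1-yfp-creER/+ mice and the 4 A20 cKO libraries from Cx3cr1-yfp-creER/+; Tnfaip3 fl/fl mice. For each genotype there was 1 naive library and a further library per time point, 1, 2 or 3 days after both sciatic nerves were cut. Tnfaip3 encodes A20, a brake on inflammatory signalling, and Cre from the Cx3cr1 locus removes its floxed part after tamoxifen. Cx3cr1 is active in microglia and also in other mononuclear phagocytes. Spinal cords of several animals were pooled and sorted for YFP, and each group was 1 library without a replicate. No test between groups could therefore be made, and every range after a value is a 95% interval that covers counting error only.

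TAM receptors are receptor tyrosine kinases that do not bind dying cells themselves. Gas6 and protein S, the product of Pros1, form the bridge: one end binds phosphatidylserine on a dying cell and the other end binds the receptor. Mfge8 bridges in the same way but to integrins. In macrophages and microglia Mertk is best known for the uptake of dying cells at rest, and Axl is known as a receptor induced by interferon and inflammation, which feeds back on cytokine signalling through Socs1 and Socs3.

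The libraries held 1648400 to 15817426 UMIs (unique molecular identifiers, 1 per captured RNA molecule), and the median of kept cells was 2780 to 4274 UMIs. After the cell filter 14626 of 14883 barcodes remained. Of the microglia markers, Tmem119 had a UMI in 96.2% to 100% of kept cells in every library, P2ry12 in 90.1% to 100%, Fcrls in 26.7% to 97.6% and the transcription factor gene Sall1 in 30.2% to 41.0%. The 5 libraries control day 3 and all A20 cKO shared more cell barcodes with each other (a median of 13.7 in 1000000 possible barcode pairs over 10 library pairs) than the libraries control naive, day 1 and day 2 did (1.59 over 3 library pairs). The split is not clean, since the 15 mixed pairs had a median of 1.94 but ran up to 8.83, for control naive with A20 cKO day 1, while the lowest linked pair, control day 3 with A20 cKO naive, had 5.41. They are called the linked libraries here, since they stand apart in other ways too: a list of monocyte markers was at 30.3 to 97.9 CPM (UMIs scaled to a library total of 1000000) in the linked libraries and at 2.63 to 4.30 CPM in the other 3, with Plac8 making up most of it and Ccr2 at 2.36 CPM or less. Neutrophil markers were at 20.1 to 35.0 CPM in the linked libraries and at 0 in the others. Mbp, a myelin gene, was at 79.9 to 133.8 CPM against 14.7 to 24.7 CPM. Microglia markers were lower in the linked libraries, with Tmem119 at 1660 to 2322 CPM against 2915 to 3665 CPM and Fcrls at 112.9 to 1078 CPM against 1229 to 1454 CPM. P2ry12 overlapped, at 844.8 to 2755 CPM against 2463 to 4026 CPM. Border macrophage markers stayed at 12.6 CPM or less, and Cd163 had no UMI in any library. Whether RNA of these cells took part in a result below was not tested. Ratios were recomputed without all cells holding a UMI of the oligodendrocyte, astrocyte, neuron or vascular lists (the cells without other-cell markers). These values carry no interval of their own and are given beside each ratio whose interval they fell outside. The astrocyte list was mostly Slc1a3, at 252.4 to 380.4 CPM in the linked libraries and 102 to 161.1 CPM in the others. Cnp was at 65.7 to 90.9 and 65.4 to 78.5 CPM, and Mag at 30.7 to 44.9 and 35.5 to 46.9 CPM. As these genes were found in all libraries, the setting cannot be read as leaving out RNA of other cells alone. Comparisons are called linked, unlinked or crossing by whether both, none or 1 of the libraries is linked. Tnfaip3 itself was at 6.83 to 25.3 CPM in control and 42.3 to 67.7 CPM in A20 cKO libraries, and as reads come from the 3′ end of the transcript this level does not check the deletion. The names of groups follow the labels.

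All 6 genes are protein-coding genes with 1 row each in the tables. Axl (ENSMUSG00000002602) lies at chr7:25757273-25788705 on the minus strand of GRCm38, Mertk (ENSMUSG00000014361) at chr2:128698956-128802894 and Tyro3 (ENSMUSG00000027298) at chr2:119797733-119818104, both on the plus strand. Gas6 (ENSMUSG00000031451) lies at chr8:13465374-13494490 on the minus strand, Pros1 (ENSMUSG00000022912) at chr16:62854307-62929346 on the plus strand and Mfge8 (ENSMUSG00000030605) at chr7:79133768-79149060 on the minus strand. Mertk overlaps a small nucleolar RNA gene on its own strand and an antisense gene, and Gas6 overlaps Tmem255b on the other strand. Whether these overlaps touch the counts was not tested.

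All 6 genes have a promoter in the RefSeq table, and the 250 bases before the start of Axl, Mertk and Gas6, the genes the comparisons below turn on, are shown so that they can be read beside the injury and interferon values. Each is written 5′ to 3′ on the strand of the gene, on the build GRCm38.p6, at chr7:25788734-25788983 for Axl, chr2:128698665-128698914 for Mertk and chr8:13494536-13494785 for Gas6. Capitals mark GC boxes, the letters GGGCGG or their reverse complement, which bind Sp1-type factors.
Axl: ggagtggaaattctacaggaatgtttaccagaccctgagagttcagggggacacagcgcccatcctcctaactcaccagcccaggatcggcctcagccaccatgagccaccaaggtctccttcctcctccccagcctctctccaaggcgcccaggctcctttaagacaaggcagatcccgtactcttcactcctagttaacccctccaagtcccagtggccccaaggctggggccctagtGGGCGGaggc
Mertk: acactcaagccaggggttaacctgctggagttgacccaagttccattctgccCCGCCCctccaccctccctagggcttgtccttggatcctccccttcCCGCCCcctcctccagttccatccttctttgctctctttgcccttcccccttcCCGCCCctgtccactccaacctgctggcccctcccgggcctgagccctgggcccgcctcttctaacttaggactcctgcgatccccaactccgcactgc
Gas6: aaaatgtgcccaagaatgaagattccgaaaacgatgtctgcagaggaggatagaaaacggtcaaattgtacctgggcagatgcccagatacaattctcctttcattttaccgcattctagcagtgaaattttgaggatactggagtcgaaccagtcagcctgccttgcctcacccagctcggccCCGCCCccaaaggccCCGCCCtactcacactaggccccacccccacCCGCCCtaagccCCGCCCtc

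The Axl window held 1 GC box, the Mertk window 3 and the Gas6 window 4, while Tyro3 had 3, Pros1 5 and Mfge8 4. Overlapping matches were counted, and 32.7% of the 32851 windows of this kind held at least 1. None of the 6 windows held, on either strand, the core of the interferon-stimulated response element, GAAA repeated after 2 bases (2.98% of all windows), the AP-1 site TGANTCA (6.75%) or the liver X receptor site, AGGTCA repeated after 4 bases (0.0152%). The STAT site TTCNNNGAA, present in 7.02% of windows, occurred once, before Pros1. These counts describe the letters in these windows and nothing beyond them.

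Axl was the gene of the set that differed most between libraries. Its level in control libraries was 25.3 CPM naive (18.2 to 34.3), 9.39 at day 1 (7.86 to 11.1), 17.6 at day 2 (15.6 to 19.8) and 52.7 at day 3 (47.6 to 58.2). In A20 cKO libraries it was 150.7 CPM naive (142.7 to 159.0), 180.6 at day 1 (165.8 to 196.4), 292.0 at day 2 (273.1 to 311.9) and 331.7 at day 3 (309.7 to 354.9). Every A20 cKO library was thus above every control library. As 3 of the 4 control libraries are not linked, part of this order crosses the split, but control day 3 is linked and the lowest A20 cKO level, in naive animals, was 2.86-fold that of control day 3, the highest control level. All 7 neighbours in the order of levels stood apart by counting error, the closest being A20 cKO day 2 and day 3.

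**Figure D1:**
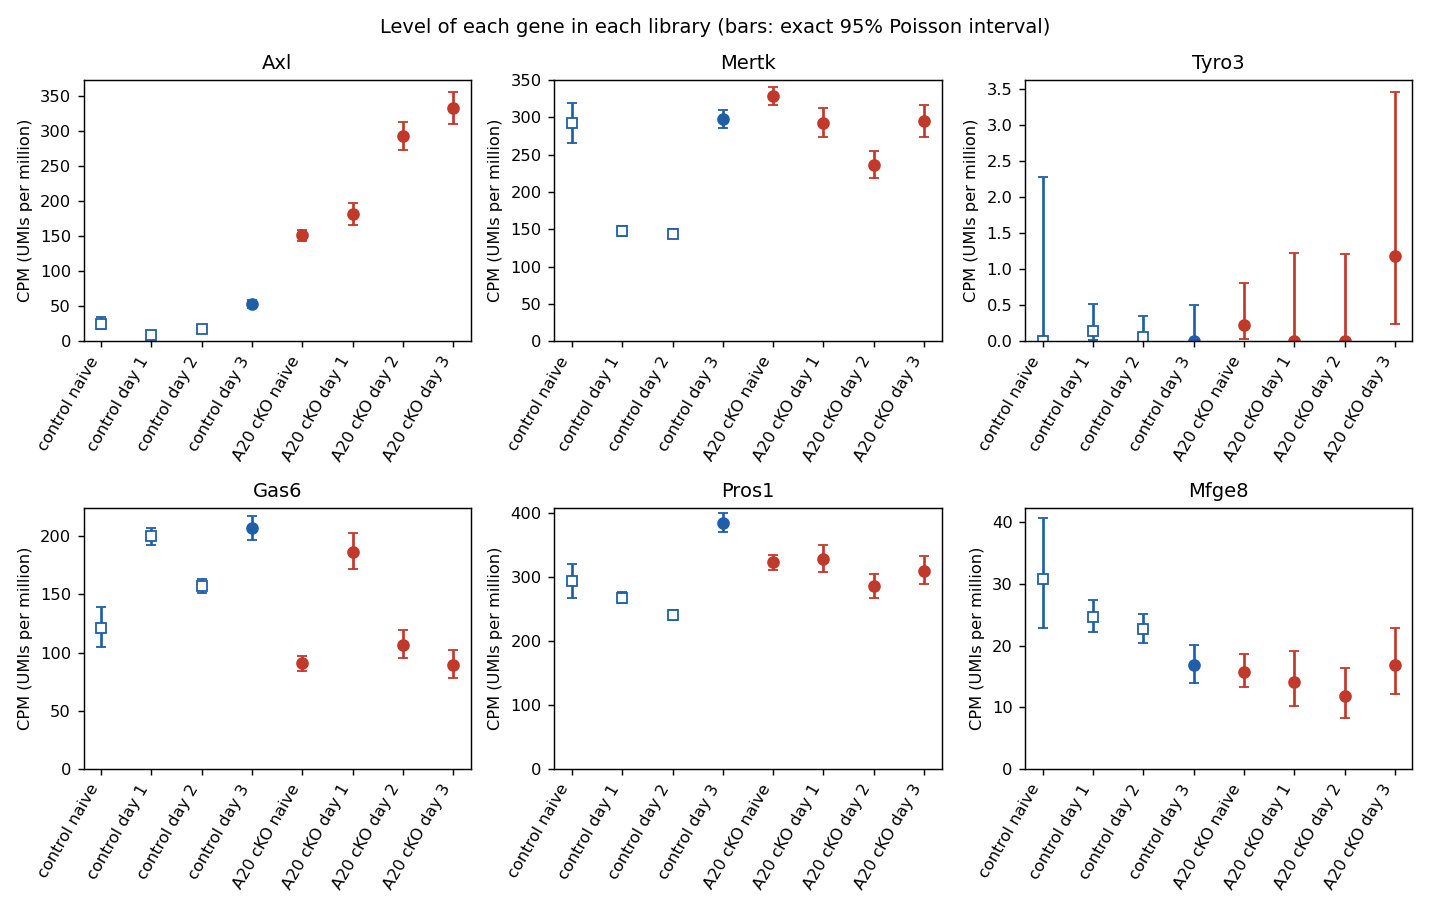
Level of Axl, Mertk, Tyro3, Gas6, Pros1 and Mfge8 in each of the 8 libraries as CPM, with exact 95% Poisson intervals of the UMI count; blue is control, red A20 cKO, filled circles are linked libraries and open squares the other 3. Axl lies at 9.39 to 52.7 CPM in control and at 150.7 to 331.7 CPM in A20 cKO libraries, while Pros1 stays within 241.3 to 385.5 CPM.

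The share of cells with an Axl UMI moved with the level. When cells were thinned to 2000 UMIs, so that depth was equal, 3.98% of control naive cells held an Axl UMI (28 of 568 cells, 4.93%, unthinned), 1.46% at day 1, 3.05% at day 2 and 8.73% at day 3 (13.4% unthinned). In A20 cKO libraries the thinned share was 21.4% naive, 25.2% at day 1, 40.7% at day 2 and 46.8% at day 3, and the unthinned share 28.7%, 36.8%, 63.0% and 69.4%. In 13 kept cells with fewer than 3 UMIs of the microglia markers, all from linked libraries and shallow at a median of 1330 UMIs, none held an Axl UMI, which allows a share of up to 23.1%. Cells with Axl also held more of it in the A20 cKO libraries, with a mean of 1.60 to 2.18 UMIs per positive cell against 1.11 to 1.46 in control. These means were not thinned. No single cell held more than 1.46% of the Axl UMIs of an A20 cKO library, and it took at least 85 cells to reach 50% of them. In control naive the top cell held 9.76% of the 41 Axl UMIs and 8 cells reached 50% of them. In control day 1, day 2 and day 3 it took 53, 110 and 92 cells.

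Mertk, the receptor for uptake of dying cells, followed another order. It was at 291.9 CPM in control naive (266.2 to 319.4), 147.5 at day 1 (141.2 to 154.0), 144.2 at day 2 (138.3 to 150.2) and 297.5 at day 3 (285.1 to 310.3). In A20 cKO it was at 327.9 CPM naive (316.2 to 340.1), 292.2 at day 1 (273.3 to 312.1), 236.3 at day 2 (219.3 to 254.3) and 294.7 at day 3 (274.0 to 316.6). The control day 1 and day 2 libraries were low and did not differ from each other beyond counting error, and A20 cKO day 2 was next. Control naive, A20 cKO day 1, A20 cKO day 3 and control day 3 followed within 291.9 to 297.5 CPM and could not be told apart from their neighbours, and A20 cKO naive was above them. The thinned share of cells with Mertk was 41.0% in naive controls and 26.7%, 25.2% and 44.6% on the days after injury, and the A20 cKO libraries had 48.2%, 45.1%, 38.8% and 43.1% likewise (unthinned 44.4% to 68.5%).

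Tyro3, the TAM receptor best known from neurons, was close to absent. It had 8 UMIs in 7 of 14626 cells: 2 in control day 1, 1 in control day 2, 2 in A20 cKO naive and 3 in A20 cKO day 3. The other 4 libraries had none, which allows up to 1.85 CPM in control naive, the shallowest, and 0.412 CPM in control day 3. No comparison of Tyro3 was detectable at this depth.

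Gas6, the ligand that binds all 3 receptors, was higher at day 1 than in naive animals of both genotypes. It was at 121 CPM in control naive (104.6 to 139.1), 199.7 at day 1 (192.3 to 207.2), 157.0 at day 2 (150.9 to 163.3) and 206.4 at day 3 (196.1 to 217.1). In A20 cKO it was at 90.7 CPM naive (84.6 to 97.2), 186.6 at day 1 (171.5 to 202.6), 106.8 at day 2 (95.5 to 119.1) and 89.7 at day 3 (78.4 to 102.1). A20 cKO day 1 stood next to control day 1 and did not differ from it beyond counting error, a pair that crosses the split. At day 3 the A20 cKO library did not differ from its naive level beyond counting error. Control day 3 had the highest value but did not differ beyond counting error from control day 1 (log2 ratio 0.05, -0.04 to 0.14), a pair that also crosses the split. The thinned share of cells with Gas6 ran from 11.7% in A20 cKO day 3 to 30.4% in control day 3 (unthinned 21.7% to 50.2%). Among the 13 cells with hardly any microglia markers 2 held Gas6 (15.4%, interval 1.92% to 45.4%), against 38.7% of all kept cells. These 13 cells are shallower than the others and too few to tell Gas6 UMIs from free RNA.

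Pros1, which encodes protein S, varied least of the 5 genes with UMIs in every library. The naive control library had 293.7 CPM and those of days 1, 2 and 3 had 268.1, 241.3 and 385.5 CPM, while A20 cKO had 323.1, 328.6, 285.8 and 310.5 CPM in the same order. Control day 3 was above all others and control day 2 below all others by counting error. None of the 5 neighbouring steps from control day 1 to A20 cKO day 1 in the order exceeded counting error. The ends of that run did lie apart, at 259.6 to 276.8 CPM in control day 1 and 308.5 to 349.6 CPM in A20 cKO day 1. Pros1 was found in 36.9% to 51.9% of thinned cells. Of the 13 cells with hardly any microglia markers, which are shallower, 2 held it (15.4%, interval 1.92% to 45.4%), against 63.1% of all kept cells.

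Mfge8 was low. It was at 30.9 CPM in naive controls and at 24.7, 22.7 and 16.9 CPM on the days after injury, and the A20 cKO libraries had 15.8, 14.2, 11.9 and 16.9 CPM in the same order, so all 5 linked libraries were below the other 3. None of its 7 neighbouring steps in the order exceeded counting error, but libraries further apart in it did differ by more. Against control naive the log2 ratio was -0.88 (-1.36 to -0.37) in control day 3 and -0.97 (-1.44 to -0.47) in A20 cKO naive, both crossing comparisons. Thinned shares were 2.05% to 5.78% of cells, and 3 of the 13 cells with hardly any microglia markers held an Mfge8 UMI (23.1%, interval 5.04% to 53.8%) against 7.35% of all kept cells. These 13 cells are too few to tell its UMIs from free RNA or to show that they are free RNA, and its differences are given as values only.

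Injury in control animals was compared first. Ratios are log2 ratios of CPM with 0.5 UMIs added, read as past 2-fold at 1 or more in size, among genes with at least 100 UMIs in both libraries together. Tyro3 never reached that number, so 5 genes of the set enter each comparison. At day 1 against naive (unlinked), Axl was at -1.44 (-1.95 to -0.89), Mertk was at -0.99 (-1.13 to -0.84) and Gas6 at 0.72 (0.51 to 0.94). In the cells without other-cell markers Axl was at -2.02 and Gas6 at 0.97. Axl was the 1 gene of 5 past 2-fold, where 11.1% of 8866 genes were (3.82% higher and 7.25% lower). The median gene was at -0.13, so that relative to it Axl was at -1.31, Mertk at -0.86 and Gas6 at 0.85. Mertk passed 2-fold in 2 other settings, at -1.01 without the cell filter and -1.04 in the cells without other-cell markers. The control day 1 library stood apart by immediate-early transcripts such as Fos and Egr1: the 80th percentile of their UMIs per cell, thinned to 2000 UMIs, was 67.2 there and 4 to 19 in the other 7 libraries. Gas6 was lower in its upper cells by this count (146.5 against 200 CPM, log2 ratio -0.45, -0.68 to -0.22), and the intervals of Axl and Mertk included 0. The part of these transcripts in the day 1 ratios was not tested. Pros1 was at -0.13 (-0.27 to 0.01), which turned to 0.018 when libraries were scaled by median-of-ratios size factors.

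At day 2 against naive (unlinked), Mertk was at -1.02 (-1.16 to -0.87), the 1 gene of 5 past 2-fold beside 12.2% of 9279 genes (5.92% higher and 6.28% lower). Axl was at -0.54 (-0.997 to -0.01) and Gas6 at 0.37 (0.17 to 0.59). The median gene was at -0.12, and relative to it Mertk was at -0.90, Axl at -0.42 and Gas6 at 0.49. Mertk was at -0.90 also when cells with UMIs of at least 3 core mitotic genes were left out. Day 3 against naive crosses the split between libraries, so injury and library cannot be told apart. In it Axl was at 1.04 (0.59 to 1.56), the 1 gene of 5 past 2-fold beside 11.1% of 8302 genes (8.76% higher and 2.32% lower), and Gas6 was at 0.77 (0.56 to 0.99). Axl came to 0.999 with median-of-ratios scaling, to 0.65 in the cells without other-cell markers, where Gas6 was at 0.997, to 0.85 without cells holding Mbp or Mobp and to 0.89 without cells holding monocyte, border macrophage or neutrophil markers, the last 2 settings having been chosen after the data were seen. Mertk was at 0.03 (-0.12 to 0.17), Pros1 at 0.39 (0.25 to 0.54) and Mfge8 at -0.88 (-1.36 to -0.37).

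In A20 cKO animals all 3 days were compared with the naive library inside the linked libraries. At day 1 Gas6 was at 1.04 (0.88 to 1.20) and was the 1 gene of 5 past 2-fold, beside 2.95% of 8919 genes (1.56% higher and 1.39% lower). Only 1.37% of genes had a higher ratio. Without cells holding monocyte, border macrophage or neutrophil markers it was at 0.99, and in the cells without other-cell markers at 1.34. Axl was at 0.26 (0.12 to 0.41) and Mertk at -0.17 (-0.28 to -0.06). At day 2 Axl was at 0.95 (0.83 to 1.08), short of 2-fold, Mertk at -0.47 (-0.59 to -0.35) and Gas6 at 0.24 (0.05 to 0.42). In the 67 day 2 cells without other-cell markers Axl was at 1.12, Gas6 at 0.58, Pros1 at 0.033 (-0.18 in all cells) and Mfge8 at -1.28 (-0.40 in all cells). These values carry no interval, and Mfge8 had 36 UMIs in all 667 day 2 cells. No gene of the 5 was past 2-fold in all cells, beside 5.5% of 8921 genes (2.86% higher and 2.65% lower). At day 3 Axl was at 1.14 (1.01 to 1.26), the 1 gene of 5 past 2-fold beside 3.92% of 8797 genes (1.92% higher and 2% lower), and Gas6 was at -0.01 (-0.23 to 0.20). Pros1 was at -0.06 (-0.17 to 0.06), and at 0.058 with median-of-ratios scaling. In the 70 day 3 cells without other-cell markers Axl was at 1.62, Pros1 at -0.25 and Mfge8 at -1.36 (0.11 in all day 3 cells). Mfge8 had 43 UMIs in all 558 day 3 cells, and without an interval its value in the 70 cells cannot be told from counting error.

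**Figure D2:**
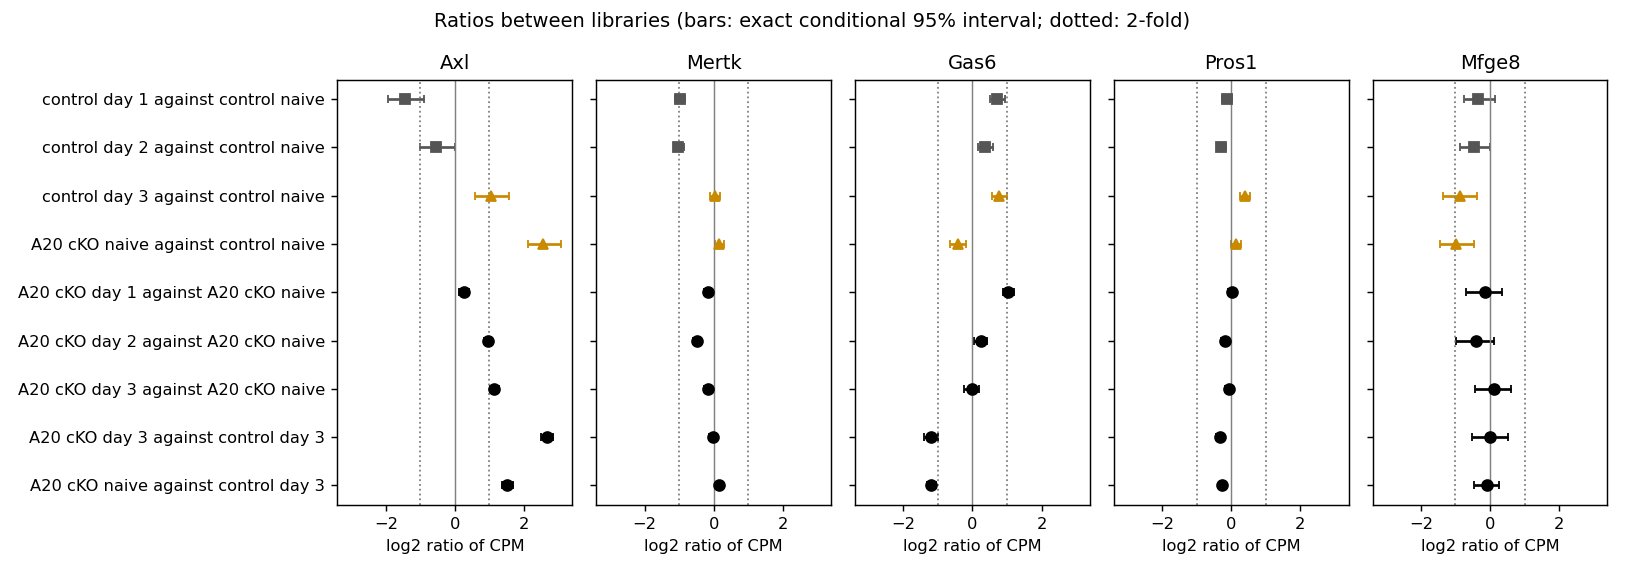
Log2 ratio of CPM of Axl, Mertk, Gas6, Pros1 and Mfge8 in the 9 comparisons, with exact conditional 95% intervals; black circles are linked, grey squares unlinked and ochre triangles crossing comparisons, and dotted lines mark 2-fold. Axl lies right of the 2-fold line in both comparisons of A20 cKO with control day 3 (2.65 and 1.51) and Gas6 left of it (-1.20 and -1.19).

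The 2 genotypes can be set against each other without the split at day 3. Each is still 1 library, so genotype and library cannot be told apart there either. Marker lists differed between these libraries too, with monocyte markers at 64.5 CPM in A20 cKO and 30.3 CPM in control. Border macrophage markers were at 12.6 and 4.12 CPM, and neutrophil markers at 20.1 and 25.7 CPM. Their part in the ratios was not tested. A20 cKO day 3 against control day 3 had Axl at 2.65 (2.48 to 2.83), a 6.29-fold higher level, and Gas6 at -1.20 (-1.41 to -1.0002), a 2.30-fold lower one. These were 2 genes of 5 past 2-fold, where 4.26% of 8488 genes were (1.86% higher and 2.4% lower). A higher ratio than that of Axl was seen in 0.236% of genes, and a lower one than that of Gas6 in 1.3%. The median gene was at -0.12, and relative to it Axl was at 2.77 and Gas6 at -1.08. Axl lay between 2.65 and 2.80 in every other setting that was tried. In the cells without other-cell markers Gas6 came to -0.94, short of 2-fold, Pros1 to -0.45 and Mfge8 to -1.25 (0.01 in all cells). These values carry no interval, and Mfge8 had 43 UMIs in all A20 cKO day 3 cells. Mertk was at -0.01 (-0.14 to 0.11) and Pros1 at -0.31 (-0.43 to -0.20).

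**Figure D3:**
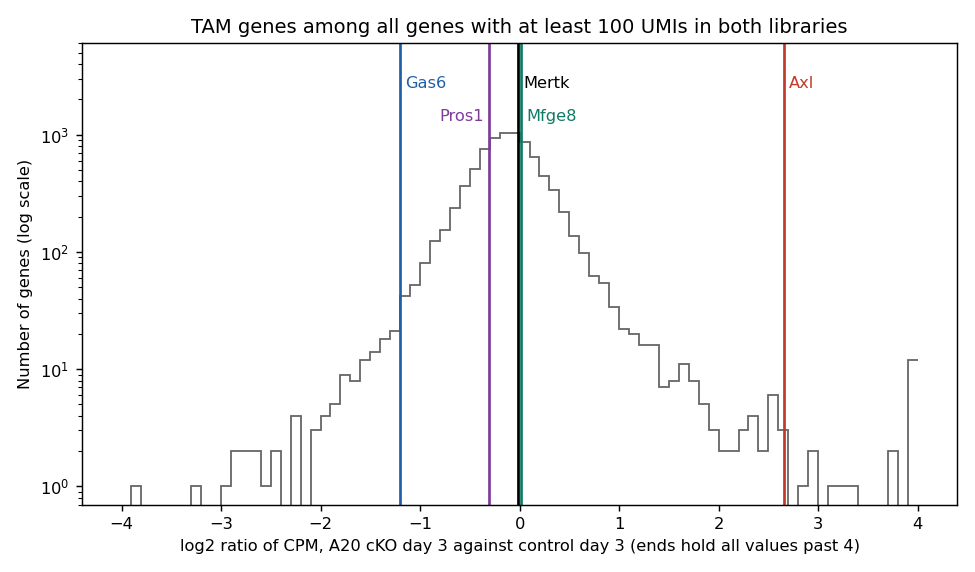
Number of genes (log scale) by log2 ratio of CPM in A20 cKO day 3 against control day 3, in steps of 0.1, for the 8488 genes with at least 100 UMIs in both libraries together; values past 4 stand in the end steps, and lines mark 5 genes of the set. Axl at 2.65 lies in the upper tail, Gas6 at -1.20 in the lower tail, and Mertk, Mfge8 and Pros1 near the middle.

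Uninjured A20 cKO microglia were compared with 2 control libraries. Against control naive, which crosses the split, Axl was at 2.56 (2.13 to 3.06), the 1 gene of 5 past 2-fold beside 9.65% of 8641 genes (7.43% higher and 2.22% lower), and Gas6 at -0.42 (-0.64 to -0.18). Axl was at 1.82 and Gas6 at -0.11 in the cells without other-cell markers. Mfge8 was at -0.97 (-1.44 to -0.47) and passed 2-fold in 4 other settings, at -1.01 to -1.06. Against control day 3, inside the linked libraries but with a different injury state, Axl was at 1.51 (1.35 to 1.68) and Gas6 at -1.19 (-1.31 to -1.06). These 2 of 5 genes were past 2-fold beside 2.45% of 9541 genes (0.964% higher and 1.49% lower), and 0.367% of genes had a higher ratio than Axl. Axl was at 1.18 in the cells without other-cell markers. Both comparisons use the same A20 cKO library, and the second shares control day 3 with the comparison above.

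The share of Axl in the UMIs of both receptors followed. Counts come from the 3′ end and are not per length, so this share is read between libraries and not as the abundance of one receptor over the other. Axl made up 7.98% of Axl and Mertk UMIs in naive controls and 5.98%, 10.9% and 15.0% on the days after injury. In A20 cKO it made up 31.5% naive (30.1% to 32.9%), 38.2% at day 1 (35.7% to 40.8%), 55.3% at day 2 (52.8% to 57.7%) and 53.0% at day 3 (50.5% to 55.4%). Genotypes did not overlap, and A20 cKO day 2 and day 3 were the libraries with more Axl than Mertk UMIs. Among the ligands, Gas6 made up 29.2%, 42.7%, 39.4% and 34.9% of Gas6 and Pros1 UMIs in control and 21.9%, 36.2%, 27.2% and 22.4% in A20 cKO.

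Axl and Mertk were found in the same cells about as often as in cells without the other. In A20 cKO day 3, 19.1% of thinned cells held both, 27.7% Axl without Mertk and 24.0% Mertk without Axl. Axl was found in 44.4% of the cells with Mertk (37.9% to 51.0%) and 48.7% of those without (43.0% to 54.4%). These shares overlapped in all 8 libraries. For Gas6 and Pros1 they overlapped in all 8 as well. In A20 cKO day 1 Axl was found in 14.7% of cells with Gas6 (10.3% to 19.98%) and in 29.1% of those without (25.5% to 32.9%). In the other 7 libraries the intervals overlapped, but only just in A20 cKO naive. There the shares were 16.7% (13.2% to 20.7%) and 22.3% (20.6% to 24.1%). Overlap of intervals does not show that shares are equal. Gas6 was found in 20.5% of control day 2 cells with Mertk (17.9% to 23.3%) and in 26.8% of those without (25.1% to 28.5%), and overlapped in the other 7. At 2000 UMIs a cell that expresses a gene at these levels often has no UMI of it, so the shares cannot show that a cell lacks a receptor.

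**Figure D4:**
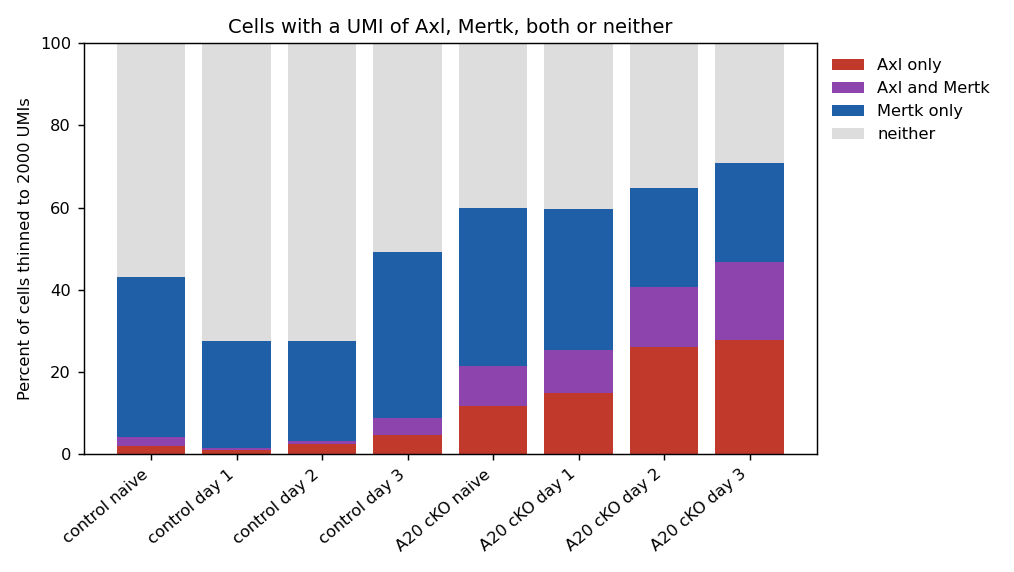
Percent of cells, each thinned to 2000 UMIs, with a UMI of Axl alone, Axl and Mertk, Mertk alone or neither, in the 8 libraries. Cells with both make up 0.589% in control day 1 and 19.1% in A20 cKO day 3, and cells with neither are most frequent in control day 1 and day 2.

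In 4 of the 8 libraries Axl was higher in the cells with most interferon response transcripts. The score was the number of UMIs of 13 genes, among them Ifit1, Isg15 and Irf7, in cells thinned to 2000 UMIs, and the cells above the 80th percentile were set against the rest. In control day 3 Axl was at 95.3 CPM in the upper cells and 39.0 CPM in the rest (log2 ratio 1.29, 0.83 to 1.74). In A20 cKO naive it was at 312.9 against 100.1 CPM (1.65, 1.42 to 1.86), at day 1 at 362.7 against 115.2 CPM (1.66, 1.29 to 2.02) and at day 2 at 361.4 against 262.9 CPM (0.47, 0.07 to 0.84). At day 3 the interval of A20 cKO included 0 (388.4 against 300.0 CPM). In control naive, day 1 and day 2 the score was 0 or near it in most cells, with 95.6% to 98.3% of cells within 1 UMI of the division, and the intervals of Axl included 0. Mertk was lower in the upper cells of 4 libraries, with log2 ratios from -0.23 in control day 3 to -0.61 in A20 cKO day 3, and Gas6 was lower in A20 cKO naive (57.9 against 95.2 CPM) and day 1 (104.6 against 201.6 CPM).

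The same count of interferon response UMIs was then used as a fixed scale across the linked libraries, a comparison chosen after the values above were seen. Of A20 cKO day 3 cells 53.3% had 6 or more such UMIs, against 23.5% of control day 3 cells. In cells with 6 or more, Axl was at 351.9 CPM (305.1 to 403.9) in A20 cKO day 3 and 91.8 CPM (72.9 to 114.1) in control day 3, a log2 ratio of 1.93 (1.56 to 2.33). With 3 to 5 UMIs it was at 300.6 and 52.8 CPM (2.50, 1.97 to 3.07) and with 1 to 2 UMIs at 229.7 and 32.7 CPM (2.82, 2.12 to 3.50). Axl was thus higher in A20 cKO day 3 in each of these 3 ranges. Cells are not matched inside the open range of 6 or more, as the 80th percentile of the count was 12 in A20 cKO day 3 and 7 in control day 3. In the lower ranges the count is a few UMIs per cell, so cells of the same range need not have the same interferon response. In A20 cKO naive Axl ran from 49.4 CPM (38.6 to 62.3) in cells with none to 303.2 CPM (271.0 to 338.2) in those with 6 or more, where it did not differ from A20 cKO day 3 beyond counting error (log2 ratio 0.22, -0.05 to 0.47).

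Gas6 kept its lower level in A20 cKO on this scale. A20 cKO day 3 against control day 3 gave -1.22, -1.14 and -1.48 in cells with 1 to 2, 3 to 5 and 6 or more interferon response UMIs, and all 3 intervals lay below 0. In control day 3 Gas6 was at 184.7 to 221.1 CPM on all 4 steps of the scale, with overlapping intervals, while in A20 cKO naive it was at 104.3 CPM (88.3 to 122.4) in cells with none and at 59.3 CPM (45.6 to 75.9) in cells with 6 or more. The intervals of Mertk included 0 on every step between A20 cKO day 3 and control day 3.

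**Figure D5:**
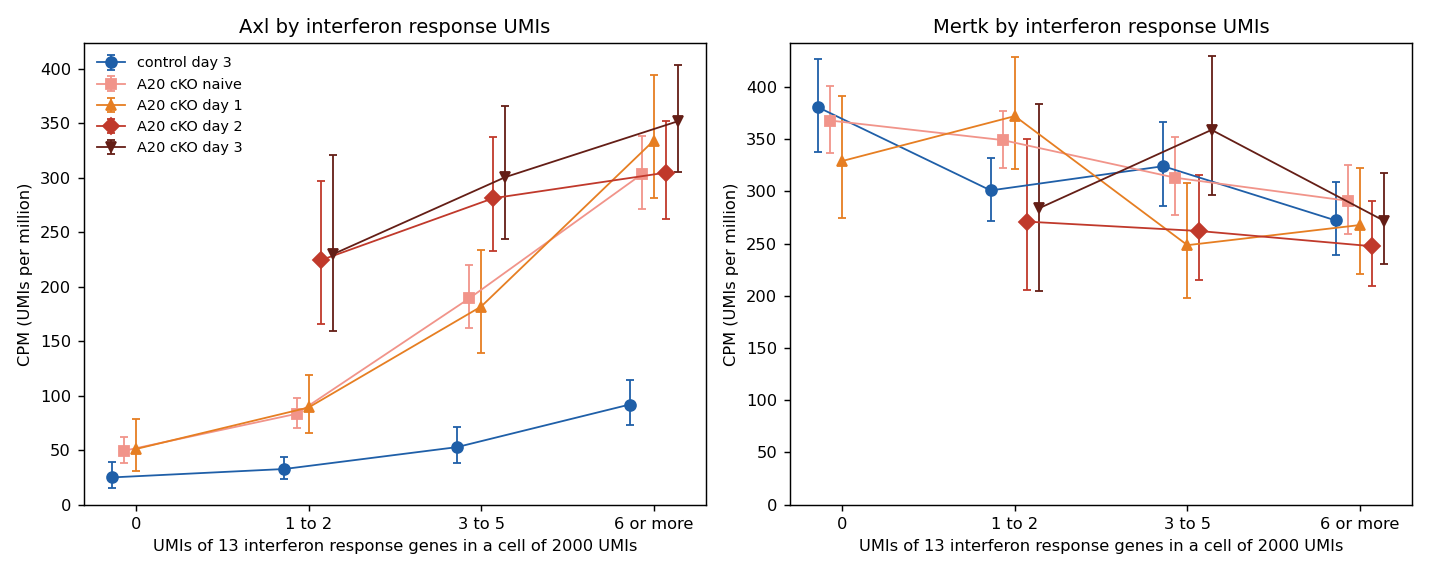
CPM of Axl (left) and Mertk (right) in cells grouped by the number of UMIs of 13 interferon response genes in a cell thinned to 2000 UMIs, in the 5 linked libraries, with exact 95% Poisson intervals; steps with under 20 cells are left out. Axl runs from 24.9 to 91.8 CPM in control day 3 and from 49.4 to 303.2 CPM in A20 cKO naive, and Mertk stays between 247.5 and 380.6 CPM.

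Other states of the cells were read in the same way. By a list of genes of disease-associated microglia (Apoe, Lpl, Cst7 and others, 10 of 11 of them in the tables), Axl was higher in the upper cells of all 4 control libraries and of A20 cKO naive and day 1. In control naive it was at 70.6 against 13.2 CPM (log2 ratio 2.41, 1.11 to 3.74), from 12 and 11 UMIs, and in A20 cKO naive at 237.4 against 115.3 CPM (1.04, 0.81 to 1.27). The interval included 0 in A20 cKO day 2 and day 3. By a list of homeostatic genes such as P2ry12 and Tmem119, Axl was lower in the upper cells of 3 libraries, with A20 cKO naive at 39.0 against 158.3 CPM (-2.00, -2.54 to -1.54). Mertk was higher in the upper homeostatic cells of A20 cKO day 1, day 2 and day 3, by 0.40 to 0.44 on the log2 scale. Mitotic cells, with at least 3 of 18 core G2/M genes, had less Mertk in 4 of the 6 libraries with enough such cells. It was at 112.2 against 150.5 CPM in control day 2 and 213.8 against 324.2 in control day 3. In A20 cKO naive it was at 224.6 against 339.4 CPM, from 31 UMIs in 69 mitotic cells. In A20 cKO day 3 it was at 102.9 against 313.5 CPM (log2 ratio -1.51, -2.93 to -0.55), from 7 UMIs in 34 mitotic cells. The intervals of Axl in mitotic cells included 0 in all 6.

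Genes around the receptors were taken from 8 lists of 52 genes: sheddases, the vitamin K cycle, integrin receptors of Mfge8, other phosphatidylserine receptors, engulfment machinery, signals against uptake, feedback on interferon, and regulators of transcription, most of them nuclear receptors. Between 34 and 37 of them had enough UMIs in each comparison. In control day 1 against naive 2 were higher and 4 lower past 2-fold (16.7% beside 11.1% of all genes). Socs3, a feedback inhibitor of JAK and STAT signalling, was at 3.78 (599.1 against 43.2 CPM) in this library of many immediate-early transcripts. Socs1 was at 1.06 (0.29 to 2.09), with 16.1 against 7.41 CPM. Among those lower, Dock1, part of the engulfment machinery, was at -1.71 (-2.31 to -1.05). The lipid transporter Abca1 was at -1.16 (-1.51 to -0.79) and Abca7 at -1.01 (-1.69 to -0.20). In control day 2 against naive 1 was higher, Socs3 at 1.32 (0.99 to 1.70), and 3 were lower (11.1% beside 12.2%). Abca1 was at -1.47 (-1.81 to -1.09) and the inhibitory receptor Cd300a at -1.17 (-1.38 to -0.96). Sirpa, the receptor for the signal against uptake Cd47, was at -1.04 (-1.13 to -0.96). The lists' genes had a median of -0.36 at day 1 and -0.30 at day 2, below the medians of all genes of -0.13 and -0.12.

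In A20 cKO none of 36 list genes was past 2-fold at day 1 or day 3 against naive, beside 2.95% and 3.92% of all genes. At day 2, 1 was higher and 2 lower (8.33% beside 5.5%). Cd300lf, a phosphatidylserine receptor, was at 1.17 (0.99 to 1.34), with 156.2 against 69.6 CPM. Cd300a was at -1.70 (-2.04 to -1.40) and Dock1 at -1.06 (-1.77 to -0.46). In A20 cKO day 3 against control day 3, 1 of 35 was higher and 2 lower (8.57% beside 4.26%). Cd300lf was at 1.88 (129.1 against 35.1 CPM) and Lrp1, an uptake receptor, at -1.14 (-1.30 to -0.98), with 148.3 against 326.3 CPM. Itgb3, a subunit of an integrin that binds Mfge8, was at -1.34 (-2.03 to -0.75), from low levels of 9.84 against 25.2 CPM. Of the 3 integrin genes listed, Itgb3 was the 1 past 2-fold. In A20 cKO naive against control day 3, 1 of 37 was past 2-fold (2.70% beside 2.45%), Socs1 at -1.01 (-1.41 to -0.62). In the 2 crossing comparisons 7 of 34 and 3 of 36 genes were past 2-fold (20.6% beside 11.1% and 8.33% beside 9.65%). Of the sheddases Adam10 and Adam17, which cut Axl and Mertk from the cell surface, Adam10 alone passed 2-fold, at 1.04 in the crossing comparison of control day 3 with naive and in no other of the 9.

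Finally, genes were ranked by how close their levels over the 8 libraries came to those of each gene of the set, after each was centred on the mean of log2(CPM + 1). With genes averaging 50 CPM or more as the 3282 candidates, those closest to Axl were Cd300lf, Oas1a, an antiviral enzyme, and Irf7, the interferon regulatory factor, with root mean square differences of 0.25, 0.37 and 0.45 against a median of 1.79 over all candidates. Among the closest to Mertk were Dock8 and Tmx3 (0.09 and 0.10, median 0.49). Closest to Gas6 were Irf2bpl, Il4ra and Ptpn1 (0.18 to 0.26, median 0.53), and closest to Mfge8 were B4galt4, Tmem11 and Zfp385a (0.10 to 0.13, median 0.49). Pros1 spanned 0.67 on the log2 scale and Tyro3 had too few UMIs, so neither was ranked. With 8 libraries that share depth and the split described above, this is a description of their order alone.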

How the data were processed

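Single YFP-sorted cells of the lumbar cord were sequenced in 8 libraries with 10x 3′ chemistry, whose kit version differs between labels and methods. Raw counts of UMIs for each gene and barcode, with no normalization, were deposited by the authors for barcodes already called as cells. The submitters' processing notes name Cell Ranger 2.1.1 and mm10. Sorting excluded doublets, per the methods, and no doublet caller or clustering was run here. The 6 genes and all lists were chosen with earlier results of these data known.

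Cells with at least 1000 UMIs, 500 genes and at most 10% mitochondrial UMIs were kept. Of the gene identifiers, 27645 of 27998 (98.7%) matched GENCODE M21. Levels are summed UMIs as CPM with exact Poisson intervals. Log2 ratios had 0.5 UMIs added and carry exact conditional intervals. Shares of cells have Clopper-Pearson intervals after thinning each cell without replacement to 2000 UMIs, which left 935 shallower cells out. All intervals are at 95% and, like the limits that 3 counts set where none was found, cover counting error only. Ratios were computed over all genes with at least 100 UMIs in both libraries together. No gene was tested, as each group is 1 library and cells are not replicates.

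All 6 genes are named, as is every list gene past 2-fold in a linked or unlinked comparison (at most 3 per list and comparison), and the 3 genes closest to each gene of the set that spans at least 1 on log2(CPM + 1). Candidates averaged 50 CPM or more, leaving out predicted genes, Xist and Y-linked genes, and those of mitochondria and ribosomal proteins. Tyro3 met the span with 8 UMIs and was still not ranked, a departure from the rule. Adam10, named at its value in a crossing comparison, was chosen after its values were seen. Some genes of the lists and rankings are not reported here, and the setting without cells holding Mbp or Mobp was narrowed for that reason. The ratio step was tested on simulated data. Python 3.11.15, NumPy 2.4.6, SciPy 1.17.1 and Matplotlib 3.10.9 were used.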

Additional observations from a re-analysis of the deposited data

Results flagged for a closer look

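Axl lay on opposite sides of 0 in the genotypes on the first 2 days after injury. At day 1 against naive it was at -1.44 on the log2 scale in control (25.3 to 9.39 CPM) and at 0.26 in A20 cKO (150.7 to 180.6 CPM). At day 2 it was at -0.54 in control and at 0.95 in A20 cKO. The difference between genotypes was not tested, since each value rests on 1 pair of libraries. The control libraries of these pairs are unlinked and the A20 cKO libraries linked, so genotype and library cannot be told apart here. At day 3 the values were 1.04 in control, a crossing comparison, and 1.14 in A20 cKO, a linked one. In the cells without other-cell markers they were 0.65 and 1.62.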

How the results depend on the processing

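The 45 log2 ratios (5 genes in 9 comparisons) were recomputed in 11 other settings, 2 of them chosen after the data were seen. Of 495 values 473 stayed inside the interval of the ratio as first computed and 22 fell outside it. The counting error of the recomputed value was not included, so where few cells were left a value can fall outside by counting error alone. No ratio past 2-fold changed sign, although 11 ratios of Mertk, Gas6, Pros1 and Mfge8 that lay between -0.18 and 0.11 did in at least 1 setting. Without cells holding any UMI of the oligodendrocyte, astrocyte, neuron or vascular lists, 17 values fell outside. This setting removed 62.0% to 89.96% of each library and left 67 and 70 cells in A20 cKO day 2 and day 3. Against control naive, Axl was then at -2.02 in control day 1 and 1.82 in uninjured A20 cKO. Gas6 was at 0.97 and 1.00 in control day 1 and day 3 and at -0.11 in uninjured A20 cKO. Against A20 cKO naive, Axl was at 1.12 and 1.62 (day 2 and day 3), Gas6 at 1.34 and 0.58 (day 1 and day 2), Pros1 at 0.033 and -0.25 and Mfge8 at -1.28 and -1.36 (day 2 and day 3). Against control day 3, Gas6 was at -0.94, Pros1 at -0.45 and Mfge8 at -1.25 in A20 cKO day 3, and Axl at 1.18 in A20 cKO naive. With the mean of per-cell CPM, Axl was at 1.08 and 1.31 in A20 cKO day 2 and day 3 against naive. With median-of-ratios scaling, Mertk was at -0.83 and Pros1 at 0.018 in control day 1 against naive, and Pros1 at 0.058 in A20 cKO day 3 against naive. The cause was not tested.

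The side of 2-fold changed with the setting for 10 of the 45 ratios. Against naive these were Mertk in control day 1 (-0.83 to -1.04) and day 2 (-0.89 to -1.11), Axl in control day 3 (0.65 to 1.24) and A20 cKO day 2 (0.91 to 1.12), Gas6 in A20 cKO day 1 and Mfge8 in A20 cKO day 2 and day 3. Between genotypes they were Mfge8 in naive animals and Gas6 and Mfge8 at day 3. Genes past 2-fold numbered 982, 1132, 920, 834, 263, 491, 345, 362 and 234 in the 9 comparisons, in the order control after 1, 2 and 3 days, then uninjured A20 cKO, each against control naive, A20 cKO day 1, day 2 and day 3 against A20 cKO naive, and A20 cKO day 3 and naive against control day 3. With no minimum on UMIs they numbered 4611, 4522, 3855, 3388, 2813, 3184, 2809, 2843 and 3519, and with a minimum of 400 UMIs 358, 438, 353, 360, 101, 163, 123, 134 and 72, the cause not being tested. Shares of cells moved with depth in 77 of 96 values when cells were not thinned or thinned to 1000 UMIs, and in 3 of 48 with another random seed. The ratio by score with the upper 10% of cells moved in 7 of 152 values.

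No paired analysis was possible because each group holds 1 library, and for the same reason no library could be left out. Depth limits Tyro3, with 8 UMIs in all, Mfge8, with 36 to 50 UMIs in 4 of the 8 libraries, and Axl in control naive, which rests on 41 UMIs.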
